A study of Mus musculus with 12 samples.

Results

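Olfactory receptor genes with RNA in mouse testis were described in 12 RNA-seq libraries. They are the rows of the deposited gene table named Olfr plus a number whose estimated counts sum to at least 60 over all 12 libraries. The table holds 585 olfactory receptor rows among 20788 genes, and 41 of the 585 (7.01%) reached this sum. The other 544 stayed below it, 110 of them at 0 in all 12 libraries. The sum chose the genes, so their presence in testis is given here as a description. Among all genes of the table, 81.7% had a sum of at least 60.

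The libraries were made from total RNA of F1 testes of a strain labelled IRC mouse and fall into 4 groups of 3. The overexpression group had received virus that raises lncRNA8276, a long non-coding RNA, and control_5NC (label 5NC) was taken as its control. The knockdown group had received virus that lowers this RNA, and control_3NC (label 3NC) was taken as its control, following the order in which the design text lists the groups. The labels give neither the age nor the kind of virus, its promoter or the cells it reached, and lncRNA8276 itself was not analysed here. Nor do they tie libraries to animals: every p-value below sets a difference against the spread of 3 libraries per group, and that spread may be technical.

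Between 13485479 and 15771655 estimated counts were assigned per library, over 18616 to 18889 genes above 0. Markers of spermatogonia, spermatocytes, round and elongating spermatids, Sertoli cells and Leydig cells were above 0 in every library for all genes of those lists. Control_3NC 2 stood apart in macrophage and leukocyte genes, with a summed level of 411.8 CPM (TMM-normalised counts scaled to library size) over the 8 genes of that list. The list lay at 55.3 to 68.7 CPM in overexpression, 53.7 to 91.9 CPM in control_5NC and 60.8 to 84.7 CPM in knockdown libraries, and its lowest value in control_3NC was 50.05 CPM. The 8 epididymis genes summed to 31.5 to 67.1 CPM in overexpression, 46.3 to 286.2 CPM in control_5NC, 25.9 to 404.0 CPM in knockdown and 56.9 to 97.5 CPM in control_3NC. None of either list was at 0 in all libraries. The part of these cell types in the results below was not tested.

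Olfactory receptors are membrane proteins of the G protein-coupled receptor class, encoded by the largest gene family of the mouse and arranged in clusters on many chromosomes. In the nose each sensory neuron expresses a single receptor gene, and the receptor acts through the G protein alpha subunit Gnal and the adenylate cyclase Adcy3 to open a cAMP-gated channel. Some family members are also transcribed in the testis, where receptors have been placed on germ cells and sperm. Olfr16, a receptor with a described role in the chemotaxis of mouse sperm (MOR23), had 11 counts over all 12 libraries, with 0 to 2 counts in a library, and is therefore not among the 41 genes.

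All 41 genes are annotated as protein-coding, on 11 chromosomes. The segment at the end of the third membrane-spanning helix is shown for 6 genes that the results turn on: the 3 genes of the chromosome 17 cluster whose reads are divided between them, its most abundant gene, and both expressed genes of the chromosome 7 cluster whose mean was lowest in overexpression. Capitals mark the codons of aspartate, arginine and tyrosine, a motif common to these receptors. The sequences are from GENCODE M21 transcripts on GRCm38, 5′ to 3′ on the coding strand.
Olfr112: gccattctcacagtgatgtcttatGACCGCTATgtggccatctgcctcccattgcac
Olfr126: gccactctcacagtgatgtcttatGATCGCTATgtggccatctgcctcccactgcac
Olfr127: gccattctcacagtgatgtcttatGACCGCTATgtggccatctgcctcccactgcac
Olfr128: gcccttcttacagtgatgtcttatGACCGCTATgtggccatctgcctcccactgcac
Olfr697: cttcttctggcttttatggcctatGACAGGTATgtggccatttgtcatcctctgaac
Olfr701: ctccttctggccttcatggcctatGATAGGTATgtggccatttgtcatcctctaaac

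The chromosome 17 genes are close copies. Olfr127 (chr17:37903548-37904519) and Olfr128 (chr17:37923568-37924494) shared 96.4% of 927 aligned coding bases, with 33 differences and a longest identical run of 288 bases. Identity was 95.9% between Olfr126 (chr17:37850594-37851553) and Olfr128 and 94.7% between Olfr126 and Olfr127. The coding sequences of Olfr697 and Olfr701 were less alike, at 79.1% identity. A stretch of 100 coding bases of the closest pair is shown to show how few bases tell both genes apart, with the 5 differing bases in capitals. It starts at base 301 of the Olfr127 coding sequence and base 241 of that of Olfr128. Bases are counted from the start of the longest reading frame of each gene, 1032 bases in Olfr127 and 927 in Olfr128.
Olfr127: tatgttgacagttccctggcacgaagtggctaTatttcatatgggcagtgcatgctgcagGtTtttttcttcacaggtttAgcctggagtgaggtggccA
Olfr128: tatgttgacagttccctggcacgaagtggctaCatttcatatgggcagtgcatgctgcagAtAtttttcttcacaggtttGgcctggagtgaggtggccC

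The deposited estimated counts carried fractions in 8 of the 41 genes, called here genes with shared counts. How the fractions arose is not stated in the sources used here. Olfr613 had fractions in 12 libraries, Olfr127 and Olfr128 in 9, Olfr1280 in 3, Olfr976 in 2, and Olfr126, Olfr27 and Olfr787 in 1. Olfr127 plus Olfr128 gave a whole number in 11 of 12 libraries within a tolerance of 0.015, and adding Olfr126 gave a whole number in 12 of 12. Only the 9 libraries with fractions in Olfr127 and Olfr128 bear on this, since elsewhere both counts were whole already. The summed counts of these 3 genes can therefore be read with more certainty than the split between them. Their sums were 216, 166 and 230 in overexpression, 230, 115 and 152 in control_5NC, 220, 190 and 190 in knockdown and 232, 163 and 239 in control_3NC. The ranges of the 4 groups overlapped.

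Among genes with a comparable relative over at least 80% of the coding length, the closest other receptor shared a median of 95.1% of bases for 7 of the 8 genes with shared counts and 88.4% for the 30 with whole counts. Olfr613, with fractions in all 12 libraries, had no such relative. Only olfactory receptor genes of the table were searched, so a closer relative outside it would be missed. Of those 30, 12 have a relative at 90% identity or more. Olfr1393, for example, is 96.7% identical to Olfr10. Exons of 7 genes overlap an exon of another annotated gene (Olfr1358, Olfr31, Olfr558, Olfr19, Olfr20, Olfr78 and Olfr1344), and the sources used here do not state whether counting used strand, so the counts of these 7 are uncertain.

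The 41 genes held 26716 of 29747 olfactory receptor counts (89.8%) and 148 CPM of the 12 libraries, before normalization. Their sums were uneven. Olfr613, a class I (fish-like) receptor gene beside the beta-globin locus, had a sum of 10441 counts, Olfr112, in the receptor cluster linked to the major histocompatibility complex, had 3968, and Olfr701 had 2526. Together these 3 held 63.4% of the counts of the 41 genes. Olfr128 followed with 1556, Olfr212 with 1120, Olfr1033 with 1040, Olfr733 with 842, Olfr127 with 529, Olfr761 with 503, Olfr365 with 439, Olfr303 with 304 and Olfr126 with 259. The median sum was 125, and 19 genes had under 120. Just inside the limit of 60 were Olfr873 and Olfr360 with 61 and Olfr1344 with 65, and just outside were Olfr1392 with 57, Olfr325 with 55.6 and Olfr1279 with 55.

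Levels between genes were compared per length, on the deposited expression values, which behave as FPKM (fragment counts scaled to transcript length and library depth). Olfr613 was at 11.6 ± 1.87 FPKM (SD over all 12 libraries), Olfr128 at 10.8 ± 1.79 and Olfr112 at 9.73 ± 1.26. Olfr701 was at 9.02 ± 3.17 FPKM, and these 4 neighbours differed by less than their SDs. Olfr733 followed at 5.44 ± 0.83 FPKM, then Olfr127 at 3.48 ± 0.80, Olfr761 at 3.32 ± 0.74 and Olfr365 at 3.01 ± 0.98, the last 3 again within their SDs. The median over the 41 genes was 0.805 FPKM. The length that these values imply was a median 0.824 of the annotated length for single-transcript genes of 500 to 1000 bases and 0.946 for those of 2000 to 4000 bases, so the order of short genes such as Olfr128 against long ones such as Olfr613 and Olfr112 is uncertain by that much. In CPM, which does not correct for length, the tested genes had a median of 1.10, against 16.4 for all 16395 tested genes, and Olfr613, at 57.9 CPM, lay at the 75.6th percentile of the tested genes. The ratio of CPM to FPKM implies the transcript length behind the deposited values, which was under 1100 bases for 30 genes, about that of a coding exon, and over 2000 bases for 7.

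**Figure D1:**
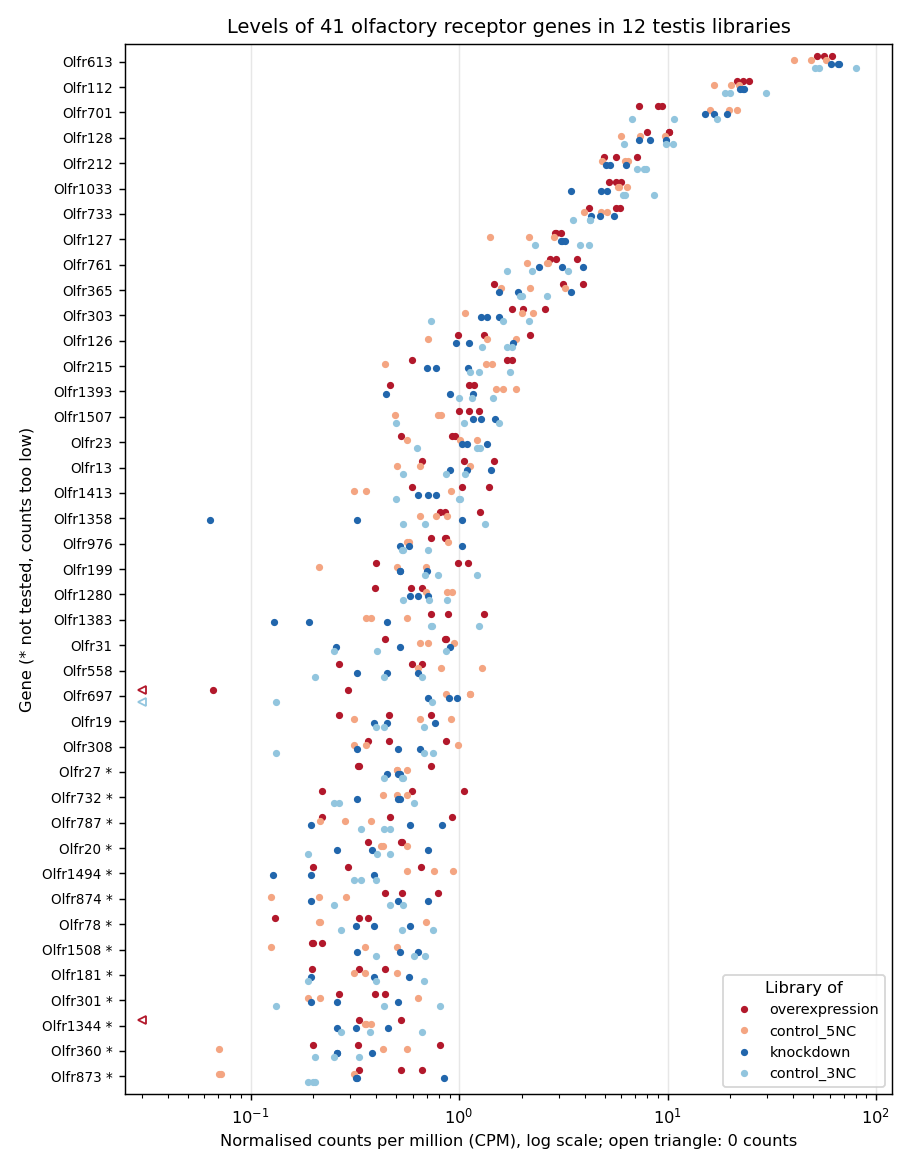
Normalised CPM (log scale) of the 41 genes, 1 point per library coloured by group, with genes ordered by mean level and open triangles for libraries with 0 counts. Olfr613, at a mean of 57.9 CPM, lies above all others, and for most genes the points of the 4 groups lie among each other.

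The 3 most abundant genes had at least 108 counts in every library. Olfr613 had 860, 835 and 786 counts in overexpression, 777, 573 and 805 in control_5NC, 1045, 1011 and 943 in knockdown and 807, 811 and 1187 in control_3NC. Olfr112 had 352, 335 and 325 counts in overexpression, 265, 285 and 305 in control_5NC, 347, 357 and 359 in knockdown and 300.0, 301 and 437 in control_3NC. In both genes control_3NC 3 was the highest library and control_5NC held the lowest. In all, 39 genes were above 0 in all 12 libraries, the exceptions being Olfr697 and Olfr1344.

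Of the genes with enough counts to be tested, Olfr112 varied least over all libraries (coefficient of variation 14.6%), followed by Olfr733 and then Olfr212 (17.3%). Olfr613 (17.7%, against 3.39% from counting error) and Olfr701 (36.7%, against 6.89%) varied more than counting gives. The same held for Olfr112 (14.6%, against 5.50%) and Olfr128 (19.0%, against 8.78%). Olfr697 (77.4%), Olfr1383 (58.6%) and Olfr558 (49.9%) varied most. The median coefficient of variation was 33.3%, and counting error alone gives a median of 24.6% at these counts. Depth therefore limits the precision of the low genes.

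Summed over the 41 genes, the level was 145.3 ± 6.24 CPM in overexpression, 139.7 ± 11.1 in control_5NC, 156.0 ± 1.54 in knockdown and 152.3 ± 30.5 in control_3NC (SD, n = 3 each). The libraries of overexpression were at 145.9, 151.3 and 138.9 CPM and those of control_5NC at 135.8, 131.1 and 152.2 CPM. Knockdown libraries were at 157.2, 156.4 and 154.2 CPM and those of control_3NC at 142.7, 127.8 and 186.5 CPM. Overexpression overlapped control_5NC and knockdown overlapped control_3NC, where control_3NC 2 was the lowest and control_3NC 3 the highest of all libraries. On the log2 scale the knockdown to control_3NC ratio of group means was 0.03, with 0.21 without control_3NC 3 and -0.078 without control_3NC 2. The count of all olfactory receptor genes above 0 was 172, 165 and 163 in overexpression, 159, 159 and 169 in control_5NC, 183, 179 and 181 in knockdown and 170, 178 and 195 in control_3NC.

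Genes of the pathway through which olfactory receptors signal in the nose had low counts in part. Of 14 genes of olfactory signal transduction, 10 were tested. The highest of the list were Pde1c at 242.6 CPM, Gnb1 at 150.6 CPM and Pde4a at 96.2 CPM. Gnal, the G protein alpha subunit of olfactory neurons, averaged 4.49 CPM, Adcy3, the adenylate cyclase, 3.62 CPM, and Cnga4 and Cngb1, subunits of the olfactory cAMP-gated channel, 6.23 and 6.67 CPM. Cnga2, the subunit that forms this channel in the nose, had 27 counts over all libraries, Gng13, the G protein gamma subunit of this pathway, 38, and Omp, the olfactory marker protein, 19. Of the 10 olfactory epithelium genes in the table, 6 had a sum under 60: Omp, Cnga2 and Gng13 with the values above, Cyp2g1 with 7 counts, Stoml3 with 4 and Obp2a with 2. The other 4 were Umodl1 with 1587 counts, Muc5b with 295, Bpifb9a with 150.2 and Gap43 with 64. Rtp1, which carries receptors to the cell surface in the nose, averaged 1.16 CPM, and Rtp2 had 22 counts in all. The highest genes of receptor trafficking and choice were Reep6 at 533.2 CPM, Kdm1a at 157.8 CPM and Reep1 at 72.7 CPM. The soluble adenylate cyclase of sperm, Adcy10, averaged 379.8 CPM. Of the tested genes of olfactory signalling (10), receptor trafficking and choice (12), receptor desensitisation (4) and cAMP signalling of sperm (10), 0 passed edgeR's quasi-likelihood test in any comparison of 2 groups. The 3 tested genes of the olfactory epithelium list did not pass either.

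Other chemosensory receptor families had some members with counts as well. A sum of at least 60 was reached by 10 of 94 vomeronasal type 1 and 16 of 105 vomeronasal type 2 receptor genes, 2 of 18 taste receptor genes, 0 of 8 trace amine-associated receptor genes and 0 of 3 formyl peptide receptor genes. Of the rows of the table, that is 10.6% of type 1 vomeronasal, 15.2% of type 2 vomeronasal and 11.1% of taste receptor genes. For olfactory receptor genes it is 7.01%. The table need not hold every gene of a family, and the difference between families was not tested. None of the tested genes of these families passed edgeR's test in the 6 comparisons.

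Differences between groups were tested for 28 of the 41 genes, those with enough counts for the fit of all 16395 tested genes. The 13 others had sums of at most 89.0, while the lowest tested sum was 96. In overexpression against control_5NC, 0 of the 28 genes passed edgeR's quasi-likelihood test with Benjamini-Hochberg adjustment at 0.05, where 0.476% of all tested genes did. At an unadjusted p below 0.05 there were 4 of 28, against 15.3% of all tested genes. DESeq2 passed 1 of the 28 genes, Olfr701, where it called 742 of all 16395 tested genes. Limma-voom passed 0 of the 28, where it called 60 of all tested genes. In knockdown against control_3NC, 0 of 28 passed against 0.0183% of all tested genes, with 3 of 28 against 8.69% at an unadjusted p below 0.05, and DESeq2 and limma-voom also passed 0.

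Control_5NC against control_3NC gave 0 of 28, against 0.244% of all tested genes (unadjusted, 4 of 28 against 12.9%). Overexpression against knockdown, which carry the opposite constructs, gave 0 of 28, against 0% (unadjusted, 3 of 28 against 2.09%), and DESeq2 and limma-voom passed 0 in both comparisons. A test of the difference between the overexpression and knockdown effects gave 0 of 28 against 0.0183% (unadjusted, 3 of 28 against 6.73%), and a test of any difference among the 4 groups 0 of 28 against 0.311% (unadjusted, 4 of 28 against 13.8%). DESeq2 passed Olfr701 in each of these last 2 tests, limma-voom 0. In both tests DESeq2 also called more of all tested genes than edgeR, with counts given in the closing section. Fitted without the filter, so that all 41 genes entered, the number that passed was also 0 in all 6 tests, with 3 to 6 genes at an unadjusted p below 0.05. In overexpression against control_5NC these were 6 of 41, beside 2580 of all 20487 genes in that fit. In knockdown against control_3NC they were 3 of 41, beside 1679 of 20487.

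The middle of the 28 genes was shifted little. In overexpression against control_5NC the median log2 fold change was 0.22, with 19 genes above 0 and 9 below, while all tested genes had a median of -0.01 with 48.0% above 0. Without overexpression 3 the median was 0.11 over the 33 genes then tested, so both the library and the set of genes changed. It was 0.18 over all 41 genes fitted without the filter. Round spermatid genes lay to the same side, with a median of 0.32 over 10 of 10 tested genes, 0 of them past the threshold. Their summed level was 1662 to 1842 CPM in overexpression and 1467 to 1499.8 CPM in control_5NC. Elongating spermatid genes also had a median of 0.32 over 10 of 10, with sums of 18712 to 24807 CPM in overexpression and 17643 to 21378 CPM in control_5NC. Medians of the other cell type lists in this comparison were 0.03 for spermatogonia, -0.15 for spermatocytes, 0.18 for Sertoli cells, 0.20 for Leydig cells, 0.07 for macrophages and leukocytes and -1.30 for epididymis. Of all these genes, 2 passed edgeR's test. Spo11, which makes the breaks of meiotic recombination, was lower (-0.91 ± 0.10, adjusted p = 0.00327). Cst9, a Sertoli cell cystatin, was higher (2.22 ± 0.38, adjusted p = 0.0449). None passed in the 3 other comparisons of 2 groups. Cst9 in control_5NC against control_3NC was at -2.28 ± 0.38 (edgeR adjusted p = 0.0504), just above the threshold. Mean Cst9 was 10.06 CPM in control_5NC, against 46.76 in overexpression, 45.91 in knockdown and 48.92 in control_3NC. Mean Spo11 was 62.01 CPM in control_5NC, against 32.97 in overexpression, 35.68 in knockdown and 44.89 in control_3NC. Control_5NC was thus the lowest group in Cst9 and the highest in Spo11. The part of these cells in the median of the receptor genes was not tested, and in a whole tissue fewer cells of a type and less RNA per cell cannot be told apart.

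In knockdown against control_3NC the median of the 28 was -0.033, with 14 genes above 0 and 14 below, beside -0.025 for all tested genes. Without control_3NC 3 it was 0.08 over the 33 genes then tested. Macrophage and leukocyte genes, high in control_3NC 2, had a median of -1.24 there. In control_5NC against control_3NC the median of the 28 was -0.13 beside -0.018, where round spermatid genes had a median of -0.23 and elongating spermatid genes of -0.21. In overexpression against knockdown it was 0.12 beside 0.0064, with 0.01 for round and 0.07 for elongating spermatid genes. Genes whose CPM did not overlap between the groups numbered 8 of 28 for overexpression against control_5NC, where 22% of all tested genes did not overlap. They numbered 5 of 28 for knockdown against control_3NC (13% of all), 4 of 28 for control_5NC against control_3NC (13.2%) and 7 of 28 for overexpression against knockdown (10.6%).

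**Figure D2:**
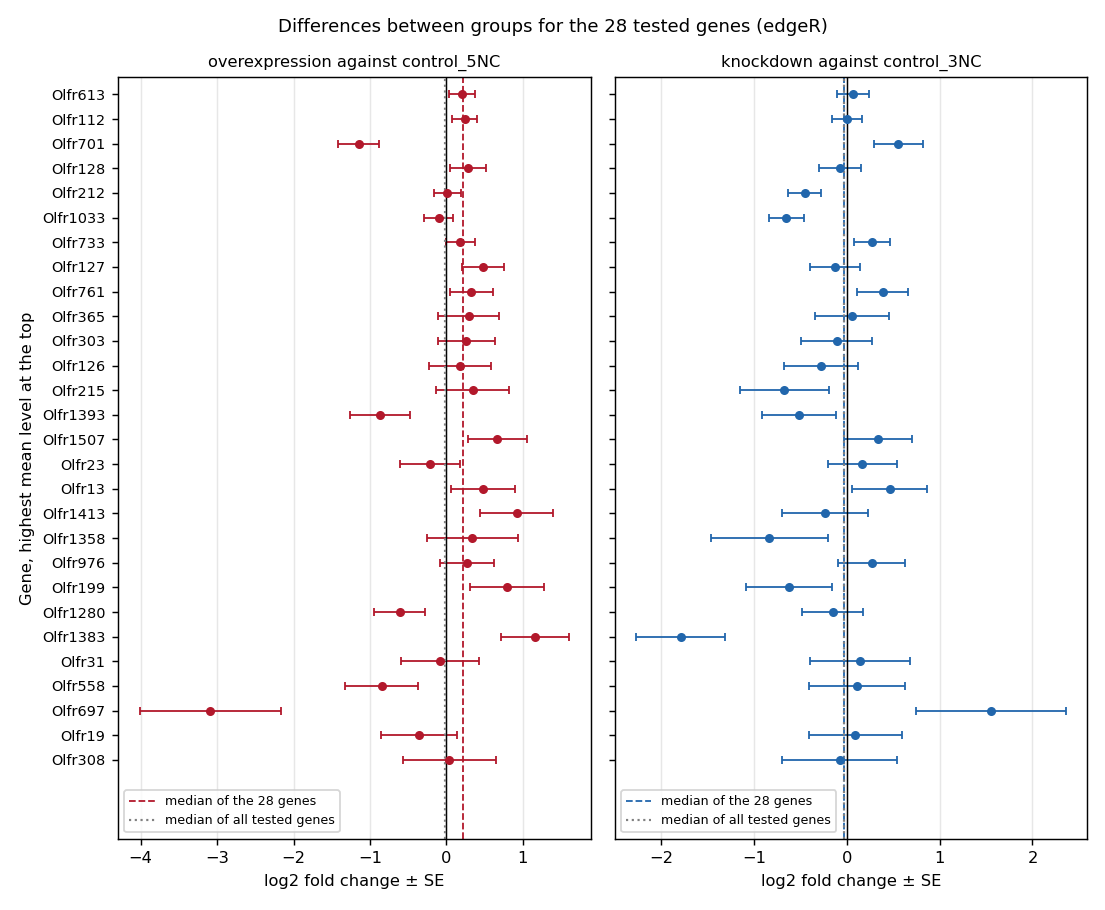
Log2 fold change with its standard error for the 28 tested genes in overexpression against control_5NC (left) and knockdown against control_3NC (right), ordered by mean level, with dashed lines at the median of the 28 genes and dotted lines at that of all tested genes. Olfr697 and Olfr701 lie lowest on the left, at -3.09 and -1.15, and Olfr1383 lies lowest on the right, at -1.79.

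Olfr701 (chr7:106814129-106820709, plus strand, GRCm38) came nearest to the threshold. It had 143, 123 and 110 counts in overexpression, 254, 278 and 299 in control_5NC, 301, 233 and 259 in knockdown and 162, 108 and 256 in control_3NC. Overexpression lay below control_5NC and below knockdown without overlap, while control_3NC spread over both levels, with control_3NC 3 as high as the knockdown libraries. The mean was 8.57 ± 1.12 CPM in overexpression and 19.0 ± 2.82 CPM in control_5NC (SD, n = 3 each), a log2 fold change of -1.15 ± 0.27 (SE, edgeR adjusted p = 0.0818, lower in 3 of 3 libraries). It was 17.0 ± 2.07 CPM in knockdown and 11.6 ± 5.33 CPM in control_3NC, a log2 fold change of 0.56 ± 0.26 (adjusted p = 0.559), with 0.96 without control_3NC 3 and 0.28 without control_3NC 2.

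Whether the Olfr701 call is made depends on the fit. Overexpression against control_5NC had an adjusted p of 0.00413 by DESeq2 and 0.0205 when edgeR was fitted to the 6 libraries compared, and 0.00413 to 0.358 over all 15 alternatives. The log2 fold change of Olfr701 lay between -1.27 and -1.05 in all 15. The fit to the 6 libraries called 111 of the 15848 genes it tested. The overexpression effect minus the knockdown effect was -1.70 ± 0.38 (adjusted p = 0.311). It was -2.11 without control_3NC 3 (edgeR adjusted p = 0.0245). The test of any difference among the groups passed without control_3NC 2 (adjusted p = 0.0452) and without control_3NC 3 (0.0244), against 0.179 with all libraries. Over all fits that left out 1 library, edgeR called 3 to 12 of all tested genes for the difference between effects. Among the groups it called 12 to 175.

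Olfr697 (chr7:106740905-106741956, minus strand) lies 72.2 kb from Olfr701 in the same cluster. Its counts were 1, 4 and 0 in overexpression, 18, 16 and 12 in control_5NC, 14, 15 and 11 in knockdown and 2, 0 and 11 in control_3NC. The order of the groups was that of Olfr701, and control_3NC 3 again had the level of the knockdown libraries while control_3NC 1 and 2 had 2 counts or fewer. Overexpression and control_5NC did not overlap, at 0.12 ± 0.15 and 1.04 ± 0.15 CPM, with a log2 fold change of -3.09 ± 0.92 (edgeR adjusted p = 0.139). The value was -4.67 without overexpression 2. Knockdown was at 0.86 ± 0.13 CPM and control_3NC at 0.29 ± 0.40 CPM (1.56 ± 0.81, adjusted p = 0.563), and the log2 fold change was 3.57 without control_3NC 3 and 0.96 without control_3NC 2.

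The rest of this chromosome 7 cluster held few reads. Of the other 29 rows, 25 had at least 1 count, and together they summed to 18 counts in overexpression, 35 in control_5NC, 37 in knockdown and 25 in control_3NC. By library the sums were 9, 5 and 4 in overexpression, 14, 9 and 12 in control_5NC, 15, 15 and 7 in knockdown and 4, 8 and 13 in control_3NC. Olfr702, next to Olfr701 and below the limit of 60, had 5 counts in overexpression, 21 in control_5NC, 15 in knockdown and 10 in control_3NC. It was chosen after its values were seen. Overexpression had the lowest sum of the 4 groups in Olfr697, Olfr701 and Olfr702, and in the 29 other rows as a whole. Those 29 rows include Olfr702, which makes up most of their gap between overexpression and control_5NC. Their sums therefore do not show that the remaining rows follow Olfr701. Olfr703, for example, had 4 counts in overexpression, 1 in control_5NC, 2 in knockdown and 3 in control_3NC. Of all these genes only Olfr697 and Olfr701 had enough counts for a test. Of the tested genes that flank the cluster, Nlrp10, an intracellular receptor of innate immunity, had 41 counts in overexpression, 32 in control_5NC, 33 in knockdown and 63 in control_3NC (log2 fold change 0.35 ± 0.51 in overexpression against control_5NC, adjusted p = 0.817). Gm1966, on the other flank, had 111 counts in overexpression, 67.2 in control_5NC, 67.1 in knockdown and 571 in control_3NC, with 519 of these in control_3NC 2 (0.69 ± 1.07 in overexpression against control_5NC, adjusted p = 0.836).

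The 250 bases upstream of both genes are shown because their levels ordered the groups alike. They are from RefSeq on GRCm38.p6, 5′ to 3′ on the gene's strand, chr7:106813879-106814128 for Olfr701 and chr7:106741957-106742206 for Olfr697. Capitals mark TATAAA read on the opposite strand, which only the Olfr701 stretch holds. The stretch upstream of Olfr697 lies in an intron of a longer annotated transcript of that gene.
Olfr701: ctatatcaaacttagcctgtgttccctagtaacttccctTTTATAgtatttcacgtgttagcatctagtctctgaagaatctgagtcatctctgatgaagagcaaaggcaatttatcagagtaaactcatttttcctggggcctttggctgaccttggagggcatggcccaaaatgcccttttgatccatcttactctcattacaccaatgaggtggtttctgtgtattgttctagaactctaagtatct
Olfr697: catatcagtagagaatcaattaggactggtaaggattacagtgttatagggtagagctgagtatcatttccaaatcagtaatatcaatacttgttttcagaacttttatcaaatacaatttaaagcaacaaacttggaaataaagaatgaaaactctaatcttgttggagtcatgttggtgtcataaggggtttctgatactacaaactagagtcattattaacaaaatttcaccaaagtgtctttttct

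Of the motifs searched on both strands of these 250 bases (TATAAA, the homeodomain core TAATTA, the cAMP response element TGACGTCA and the palindromic Ebf site), Olfr701 held TATAAA and Olfr697 none. A RefSeq promoter was present for 30 of the 41 genes. TATAAA was in 33.3% of them, in 34.5% of 487 olfactory receptor promoters and in 13.0% of 27025 promoters of all genes. TAATTA was in 13.3%, 18.5% and 4.9% of the same sets, TGACGTCA in 0%, 0.2% and 1.6% and the Ebf site in 0%, 0.6% and 0.8%. For TATAAA and TAATTA, the shares for these 30 genes were nearer those of all olfactory receptor promoters than those of all genes.

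In Olfr1383 (chr11:49523725-49524660, plus strand) the groups stood in another order. It had 20, 12 and 11 counts in overexpression, 6, 8 and 5 in control_5NC, 3, 2 and 7 in knockdown and 11, 20 and 11 in control_3NC. Overexpression lay above control_5NC and knockdown below control_3NC, both without overlap. The log2 fold change was 1.16 ± 0.45 in overexpression against control_5NC (0.97 ± 0.30 and 0.43 ± 0.11 CPM, edgeR adjusted p = 0.237). In knockdown against control_3NC it was -1.79 ± 0.48 (0.26 ± 0.17 and 0.91 ± 0.30 CPM, adjusted p = 0.559). The control groups did not overlap either, at 0.43 ± 0.11 CPM in control_5NC and 0.91 ± 0.30 CPM in control_3NC (-1.06 ± 0.45, adjusted p = 0.352).

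Its cluster neighbour Olfr1393 had other levels, with 17, 16 and 7 counts in overexpression, 30, 23 and 21 in control_5NC, 7, 18 and 14 in knockdown and 22, 16 and 17 in control_3NC. Overexpression lay below control_5NC without overlap, at -0.87 ± 0.39 (adjusted p = 0.318; -0.55 without overexpression 3), and knockdown overlapped control_3NC, at -0.51 ± 0.40 (adjusted p = 0.647).

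Next by p-value in overexpression against control_5NC were Olfr1413 at 0.92 ± 0.47, Olfr127 at 0.48 ± 0.27 (shared counts) and Olfr1507, the odorant receptor MOR28, at 0.67 ± 0.39 on the higher side. On the lower side, next to Olfr701, Olfr697 and Olfr1393, was Olfr1280 at -0.61 ± 0.33, with shared counts. Their adjusted p lay between 0.397 and 0.467. Olfr1413 was at 0.60 without overexpression 3 and 1.55 without control_5NC 2, and Olfr127 at 0.73 without control_5NC 1 and 0.25 without control_5NC 2. The most abundant genes had small values: 0.21 ± 0.17 for Olfr613, 0.24 ± 0.16 for Olfr112 and 0.28 ± 0.23 for Olfr128.

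In knockdown against control_3NC, Olfr1033 (chr2:86020640-86044808) had 54, 74 and 79 counts in knockdown and 94, 138 and 90 in control_3NC. The knockdown libraries lay below the control_3NC libraries, at 4.45 ± 0.89 and 6.99 ± 1.43 CPM, with a log2 fold change of -0.65 ± 0.19 (edgeR adjusted p = 0.559). It was -0.47 without control_3NC 2, the library with high leukocyte genes. Olfr1033 had 91, 71 and 85 counts in overexpression and 92, 91 and 81 in control_5NC, which overlapped. Olfr212 (chr6:116506516-116517965) had 83, 97 and 78 counts in knockdown and 116, 126 and 106 in control_3NC, without overlap in CPM (-0.45 ± 0.18, adjusted p = 0.559). Olfr215, its neighbour, was at -0.67 ± 0.48, and on the higher side Olfr733 was at 0.27 ± 0.19 and Olfr761 at 0.39 ± 0.27 (adjusted p = 0.62 for all 3). Olfr733 was at 0.17 without knockdown 3. Olfr761 was at 0.20 without knockdown 3, 0.19 without control_3NC 2 and 0.69 without control_3NC 1.

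Between the control groups, Olfr701 was at 0.71 ± 0.26, Olfr697 at 1.83 ± 0.80, Olfr558 at 1.05 ± 0.49 and Olfr1393 at 0.48 ± 0.38 in control_5NC against control_3NC. On the lower side were Olfr127 at -0.69 ± 0.27, Olfr1383 at -1.06 ± 0.45, Olfr212 at -0.37 ± 0.18 and Olfr613 at -0.33 ± 0.17, with adjusted p between 0.310 and 0.643 for these 8. Without control_3NC 3, Olfr701 was at 1.12, Olfr697 at 3.85 and Olfr613 at -0.088. Olfr701 was at 0.44 without control_3NC 2, and Olfr613 at -0.21 without control_5NC 2. The comparison of overexpression with control_5NC uses the same control_5NC libraries. In overexpression against knockdown, Olfr701 was at -0.99 ± 0.27, Olfr697 at -2.82 ± 0.94, Olfr23 at -0.53 ± 0.38 and Olfr613 at -0.19 ± 0.17. Olfr1383 was at 1.89 ± 0.48, Olfr1033 at 0.33 ± 0.19, Olfr1358 at 1.03 ± 0.63 and Olfr303 at 0.60 ± 0.38, all with an adjusted p of 1. Olfr1358 was at 2.28 without knockdown 3 and 0.52 without knockdown 1, and Olfr1033 at 0.18 without knockdown 1. Olfr23 was at -0.30 without overexpression 1, and Olfr697 at -4.40 without overexpression 2.

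**Figure D3:**
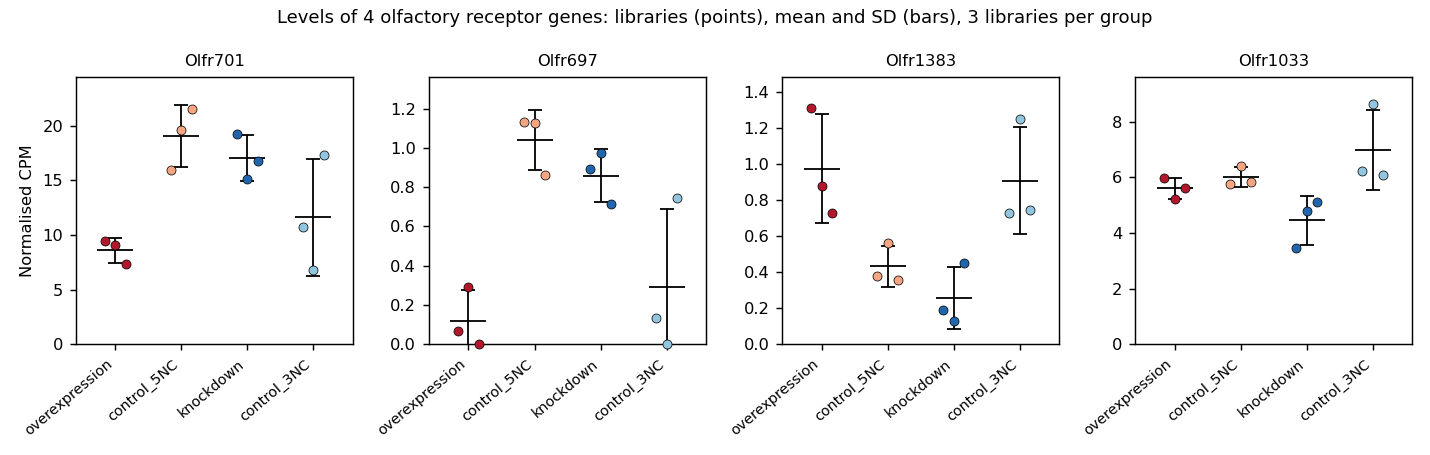
Normalised CPM of Olfr701, Olfr697, Olfr1383 and Olfr1033 by library (points) with the mean and SD of each group of 3 (bars, not drawn below 0). The mean is lowest in overexpression for Olfr701 (8.57 CPM) and Olfr697 (0.12 CPM), and it is lowest in knockdown for Olfr1383 (0.26 CPM) and Olfr1033 (4.45 CPM). Control_3NC has the largest SD of the groups for Olfr701, Olfr697 and Olfr1033.

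By position, the 585 rows formed 46 clusters when genes at most 1 Mb apart were joined. Of these, 22 held at least 1 of the 41 genes and 11 held at least 2, with 30 of the 41 genes between them. These 22 clusters held 1 to 5 expressed genes each. The cluster on chromosome 2 from 85.3 Mb had 79 rows and 1 expressed gene (Olfr1033), that on chromosome 7 from 102.5 Mb had 64 rows and 3, that on chromosome 9 from 37.7 Mb had 60 rows and 3, and that on chromosome 19 from 11.8 Mb had 34 rows and 1. On chromosome 6 at 116.5 Mb both of 2 rows were expressed, and on chromosome 17 from 37.1 Mb 5 of 29 were. The largest cluster with none had 20 rows. These sizes count rows of the table, which need not hold every gene of a cluster.

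Most counts came from few clusters. The class I receptor cluster on chromosome 7 from 102.5 to 105.4 Mb, with Olfr613, Olfr558 and Olfr78, held 39.7% of the counts of the 41 genes, and 31.5% to 43.3% in single libraries. Olfr78, a receptor for short-chain fatty acids known from kidney and carotid body, had 73 counts in all. The chromosome 17 cluster with Olfr112, Olfr128, Olfr127, Olfr761 and Olfr126 held 25.5%. The chromosome 7 cluster with Olfr701 and Olfr697 held 9.84%.

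Summed per cluster, the Olfr613 cluster was at 57.4 ± 4.84 CPM in overexpression, 50.4 ± 9.05 in control_5NC, 65.4 ± 3.03 in knockdown and 62.5 ± 15.9 in control_3NC (SD, n = 3 each), where overexpression overlapped control_5NC and knockdown overlapped control_3NC. The chromosome 17 cluster was at 40.1 ± 0.81 CPM in overexpression and 33.2 ± 2.63 CPM in control_5NC, which did not overlap, and at 38.9 ± 0.53 CPM in knockdown and 39.1 ± 8.62 CPM in control_3NC, which did. In the Olfr701 cluster the values were 8.69 ± 1.21 CPM in overexpression, 20.1 ± 2.70 in control_5NC, 17.9 ± 2.05 in knockdown and 11.9 ± 5.72 in control_3NC. The chromosome 6 pair was at 7.27 ± 1.36 CPM in overexpression, 6.94 ± 1.44 in control_5NC, 6.41 ± 0.58 in knockdown and 8.96 ± 0.16 in control_3NC, where knockdown and control_3NC did not overlap. No test was run on these sums, since the genes and clusters were chosen from the same counts.

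**Figure D4:**
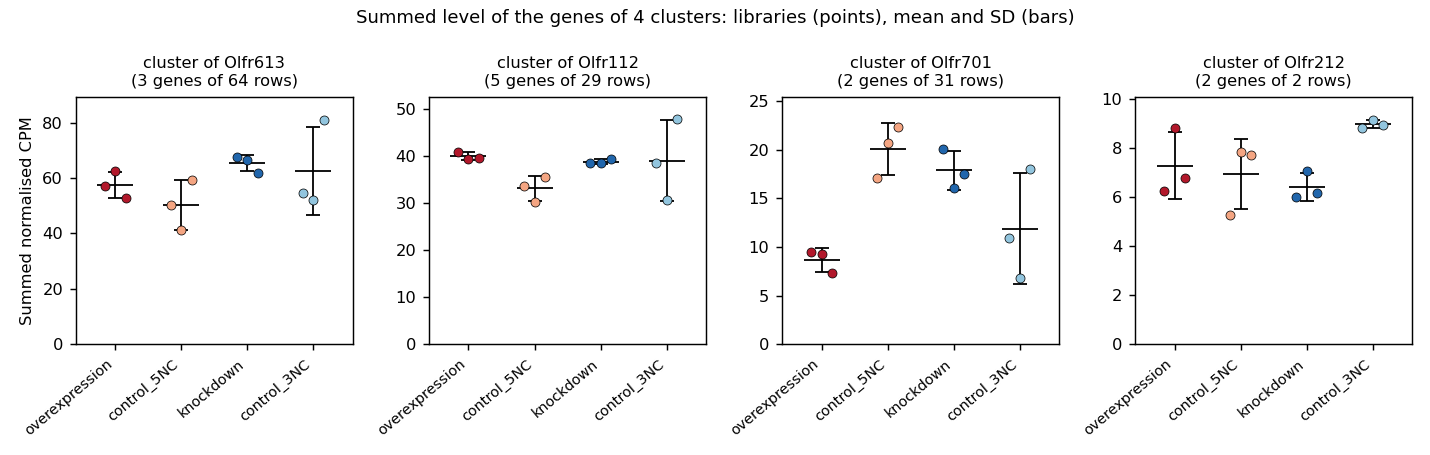
Summed normalised CPM of the expressed genes of 4 chromosome clusters by library (points) with the mean and SD of each group of 3 (bars), each named by its most abundant gene. The cluster of Olfr701 has its lowest mean in overexpression (8.69 CPM) and its highest in control_5NC (20.1 CPM), and that of Olfr212 its highest mean in control_3NC (8.96 CPM).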

How the data were processed

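RNA-seq of 12 mouse testis libraries was analysed from the deposited gene table. It pairs estimated counts and expression values per gene and library, and per the submitters' processing notes the genome build is mm10. The sources used here do not name the aligner, counter or annotation. The estimated counts were deposited by the authors without normalization, with 88.2% of values whole (tolerance 0.001). The authors' expression values carry only the heading exp and were read as FPKM, since over 1194 genes with 1 transcript the length they imply was a median 0.905 of the annotated one. A further 18 columns of 9 other samples and 14 columns of averages were not used.

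Estimated counts were rounded and fitted for all 12 libraries in 1 model of group means with edgeR 4.0.16 in R 4.3.3 (TMM normalization, minimum count 10, robust quasi-likelihood test). P-values were Benjamini-Hochberg adjusted over all 16395 tested genes, with a threshold of 0.05. CPM were TMM-normalised. The controls were assigned from the order of the design text. DESeq2 1.42.0, limma 3.58.1 (voom) and other settings served as alternatives, and the pipeline was tested on simulated data.

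The genes and gene lists were chosen with earlier results of these data known. Genes named are the 12 with the highest mean CPM, those at the limit of 60 counts, those of lowest and highest variation, those past the threshold in any test, and per comparison the 4 with the smallest p in each direction. List genes are examples.

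Positions are from RefSeq GRCm38.p6 by gene ID (20630 of 20788 rows matched), and strands, coding sequences and overlaps from GENCODE M21. The coding sequence of a gene is the longest frame from a start to a stop codon over its protein-coding transcripts. Annotated frames were not used, so a sequence can start before the annotated start codon. Same-numbered libraries did not all deviate together (correlations of deviations from -0.15 to 0.38), so the numbers were not taken as pairs. Replicates were compared and none were copies of each other.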

Additional observations from a re-analysis of the deposited data

Results flagged for a closer look

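Olfr1383 is given because its groups did not overlap in either arm and lay in opposite directions. All 3 overexpression libraries lay above all control_5NC libraries (0.97 ± 0.30 and 0.43 ± 0.11 CPM), and all 3 knockdown libraries lay below all control_3NC libraries (0.26 ± 0.17 and 0.91 ± 0.30 CPM). The overexpression effect minus the knockdown effect was 2.95 ± 0.66 on the log2 scale. This difference was tested and did not pass edgeR's test (unadjusted p = 0.000709, adjusted p = 0.311). Over 20 alternatives it lay between 2.63 and 3.60, with adjusted p between 0.154 and 0.814. The gene had 116 counts in all 12 libraries together. Olfr701 and Olfr697 also had fold changes of opposite sign in the 2 arms, but overlapped between knockdown and control_3NC. Their differences between effects were -1.70 ± 0.38 (unadjusted p = 0.000687, adjusted p = 0.311) and -4.65 ± 1.23 (unadjusted p = 0.00254, adjusted p = 0.479).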

How the results depend on the processing

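The count of 0 receptor genes past the threshold changed for Olfr701 alone: 1 gene passed with DESeq2 in overexpression against control_5NC, in the difference between effects and among the 4 groups, and 1 passed in the first when edgeR was fitted to the groups compared. That last fit called 111 of the 15848 genes it tested. Leaving out 1 library gave 0 to 1 receptor genes for the difference between effects and among the 4 groups, and 0 in the other tests. Over all genes, DESeq2 called 742 in overexpression against control_5NC (edgeR 78), 23 in knockdown against control_3NC (3), 299 in control_5NC against control_3NC (40), 12 in overexpression against knockdown (0), 53 for the difference (3) and 754 among the groups (51). The replicate block gave 269, 6 and 88 genes in the first and the last 2 of these tests and no receptor gene. It is a hint only, since the numbers do not pair the libraries. Total counts alone gave 163 in the first and 68 between controls, limma-voom 13 between controls, and fits to the groups compared 0 in knockdown against control_3NC and 9 between controls.

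Leaving out 1 library moved the counts of all genes to 5 to 217 in overexpression against control_5NC (5 without control_5NC 3 or overexpression 1, 217 without overexpression 2), 1 to 9 in knockdown against control_3NC (9 without control_3NC 3), 7 to 126 between controls (7 without control_5NC 3, 126 without control_3NC 2), 0 to 2 in overexpression against knockdown, 3 to 12 for the difference and 12 to 175 among the groups. The median over the receptor genes tested in each of these fits, 31 to 34 in place of 28, ranged over 0.11 to 0.23 in overexpression against control_5NC and -0.11 to 0.084 in knockdown against control_3NC. The log2 ratio of summed levels, a check added after seeing the data, ranged over -0.078 to 0.21 in knockdown against control_3NC and -0.24 to 0.047 between controls, where it was 0.047 without genes with shared counts. A limit of 30 counts gave 69 genes and one of 120 gave 22. No direction that passed a threshold was reversed, and the causes were not tested. Low counts limit the genes below about 1 CPM.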
